A study of Mus musculus with 11 samples.

Results

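The integrated stress response and amino acid supply genes examined here are 38 mouse genes: 6 transcription factors of the response, 8 of its effectors and feedback genes, 5 genes of serine and one-carbon synthesis, 6 of asparagine, proline, cysteine and alanine synthesis, and 13 of tRNA charging and export. The list was drawn up from pathway membership, with earlier results of these data known. Its counts beside the shares of all genes are therefore descriptive. A probe was assigned to a gene when its RefSeq accession carried the gene's current symbol or a synonym. Of the 38 genes, 37 could be tested among 25082 genes and unnamed features, and the exception was Pycr1, a proline synthesis enzyme, for which no probe accession matched. The 37 genes had 45 probes, and each was well above background on all 11 arrays.

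The cells were L-GMP, mouse granulocyte-macrophage progenitors of C57BL/6 background transformed with the MLL-AF9 fusion oncogene, from 4 lines that had been derived out of leukaemic mice. They carried the genotype Jmjd2a/b/c f/f;Rosa26::CreERT2, that is, floxed alleles of Kdm4a, Kdm4b and Kdm4c and a recombinase that 4-hydroxytamoxifen switches on, expressed from the Rosa26 locus, which is active in nearly all cells. All groups shared this genotype, RPMI medium, 20% serum and 10 ng/ml IL-3. Total RNA was hybridised to 1-colour arrays with no 4-hydroxytamoxifen (0 h, 4 arrays), and 48 h (4 arrays) or 96 h (3 arrays) into growth with 500 nM of it. Cells without floxed alleles that received the drug, and untreated cells kept for the same times, were not analysed here, so gene loss, drug, recombinase and time in culture cannot be told apart. The labels do not tie arrays to lines, so p-values measure the spread between these samples.

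In the integrated stress response, kinases that sense amino acid shortage, unfolded protein, haem shortage or viral RNA phosphorylate the translation factor eIF2. General protein synthesis then slows while the mRNA of the transcription factor ATF4 is translated more. ATF4, with partners of its own family, switches on genes that import and make amino acids and charge tRNAs. It also drives CHOP (the product of Ddit3), which favours cell death when stress lasts, and feedback genes that restore translation. Mitochondrial and oxidative stress can use the same route, and some leukaemia cells are known to depend on it for amino acid supply.

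ATF4 and its partners bind the amino acid response element, searched here as TGATGNAA on either strand. RefSeq promoter windows, which run on GRCm38.p6 from 250 bases before to 50 bases after a gene's start, were available for 32 of the 38 genes. The element occurred in the windows of 12 of these 32 genes (37.5%), against 4.51% of 27025 genes with a window. The cAMP response element TGACGTCA, a site of the wider ATF family, occurred in 1 of the 32 (3.13%, Ppp1r15a), against 2.03% of genes. The endoplasmic reticulum stress element, CCAAT and CCACG spaced by 9 bases, occurred in 0 of the 32, against 0.137% of genes. The following stretches before the start of measured genes are printed because these genes were called lower at 48 h and share this element. Of these genes only Atf3 and Nupr1 were also called lower at 96 h, and genes without the element fell too, as given below. The element is in capitals, with up to 30 bases on each side, read 5′ to 3′ on the gene's strand.
Atf3 (chr1:191183406-191183473, minus strand): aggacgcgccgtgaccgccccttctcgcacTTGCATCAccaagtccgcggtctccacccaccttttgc
Nupr1 (chr7:126625543-126625610, minus strand): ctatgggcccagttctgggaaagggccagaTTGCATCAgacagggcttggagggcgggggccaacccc
Chac1 (chr2:119351019-119351086, plus strand): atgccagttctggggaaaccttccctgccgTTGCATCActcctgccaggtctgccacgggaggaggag
Vldlr (chr19:27216790-27216857, plus strand): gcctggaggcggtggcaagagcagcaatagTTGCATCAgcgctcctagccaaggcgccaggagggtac
Asns (chr6:7693210-7693262, minus strand): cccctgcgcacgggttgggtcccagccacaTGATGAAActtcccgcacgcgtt
Aars (chr8:111033700-111033767, plus strand): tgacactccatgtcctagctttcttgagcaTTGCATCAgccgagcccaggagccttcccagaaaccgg
Gars (chr6:55037941-55038000, plus strand): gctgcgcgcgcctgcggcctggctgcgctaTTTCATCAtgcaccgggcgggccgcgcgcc
Tars (chr15:11399659-11399703, minus strand): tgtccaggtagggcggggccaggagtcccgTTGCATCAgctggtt
The same 8 letters on the opposite strand, TTGCATCA, stood in 6 of these 8 stretches, and only the stretch of Asns had the element on the gene's own strand. Trib3, Yars and Iars had the element after the start, Aars had another copy there, and the window of the untested Pycr1 held one before the start. A match describes these letters and does not show that a factor is bound.

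Values are given as the scaled log2 signal, the log2 of the processed spot signal minus the 75th percentile of its array, so that 1 unit is a 2-fold difference and levels of different probes are not comparable. Spots well above background made up 50.2% to 75.8% of the non-control spots of an array. The 0 h and 48 h arrays lay on 1 slide and all 96 h arrays on another, so slide and 96 h cannot be told apart. The 3 floxed genes were lower on every treated array than on every 0 h array, with log2 differences at 48 h of -1.59 for Kdm4a, -3.30 for Kdm4b and -4.95 for Kdm4c (limma adjusted p of 0.000641, 4.23e-07 and 5.4e-07). All 10 progenitor markers, such as Kit and Elane, were well above background on every array, and 1 of them, the granule enzyme gene Mpo, was higher at 48 h (4.33) and 96 h (5.18). Neutrophil markers were called higher for 1 of 9 at 48 h (Camp, 2.50) and for 4 of 9 at 96 h (Ltf, 6.82). Their summed level, in units of the array's 75th percentile, ranged from 79.1 to 637 at 0 h, from 171 to 612 at 48 h and from 795 to 1501 at 96 h, and Ly6g was not tested. Of 5 genes of the MLL-AF9 leukaemia programme 2 were lower at 48 h, Meis1 (-0.64, adjusted p = 0.00678) and Hoxa9 (-0.62, adjusted p = 0.0168), with a median of -0.62, and 0 of 5 were called at 96 h. Their sum ranged from 58.8 to 67.6 at 0 h, from 34.9 to 49.2 at 48 h and from 47.0 to 59.5 at 96 h. Of 6 tested monocyte and macrophage markers 1, Fcgr1, was lower at 48 h (-3.71, adjusted p = 0.00737), and their sum lay between 19.6 and 40.7 on all arrays. Lymphoid, erythroid and stromal markers summed to at most 8.17 on any array. Of all 25082 genes and unnamed features, 8.02% were called lower and 10.5% higher at 48 h, and 3.38% and 6.17% at 96 h. The 1 of 10 progenitor markers (10%) and 1 of 9 neutrophil markers (11.1%) higher at 48 h were thus near the share of all genes. In such bulk RNA, fewer cells of a type and less RNA per cell cannot be told apart, and the part of these marker and programme genes in the results below was not tested.

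At 48 h the stress response genes were lower as a group, from the transcription factors to the tRNA synthetases. Of the 37 genes, 29 fell and 0 rose against 0 h (limma, adjusted p under 0.05 over all genes), while 18.6% of all genes were called, 8.02% lower and 10.5% higher. At an unadjusted p under 0.05 the counts were 31 lower and 1 higher, against 13.9% lower and 20.8% higher of all genes. The median log2 difference of the 37 genes was -0.69, against 0.12 for all genes. Here and below, all genes means the 25082 genes and unnamed features, of which 14999 had a symbol. Among named genes outside the list the balance differed. Of 11591 whose promoter window lacked the response element, 11.2% were called lower and 8.26% higher at 48 h, with a median of 0.02. For 29 of the 37 genes every 48 h array lay below every 0 h array, which held for 9.83% of all genes with a value on all these arrays. In all 4 pairs of same-numbered arrays 31 were lower, against 18.1% of all genes. Called falls of at least 2-fold occurred for 10 of the 37, against 252 of 14999 named genes (1.68%). The count of genes that fell lay between 24 and 31 over 24 alternative treatments of the data.

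**Figure D1:**
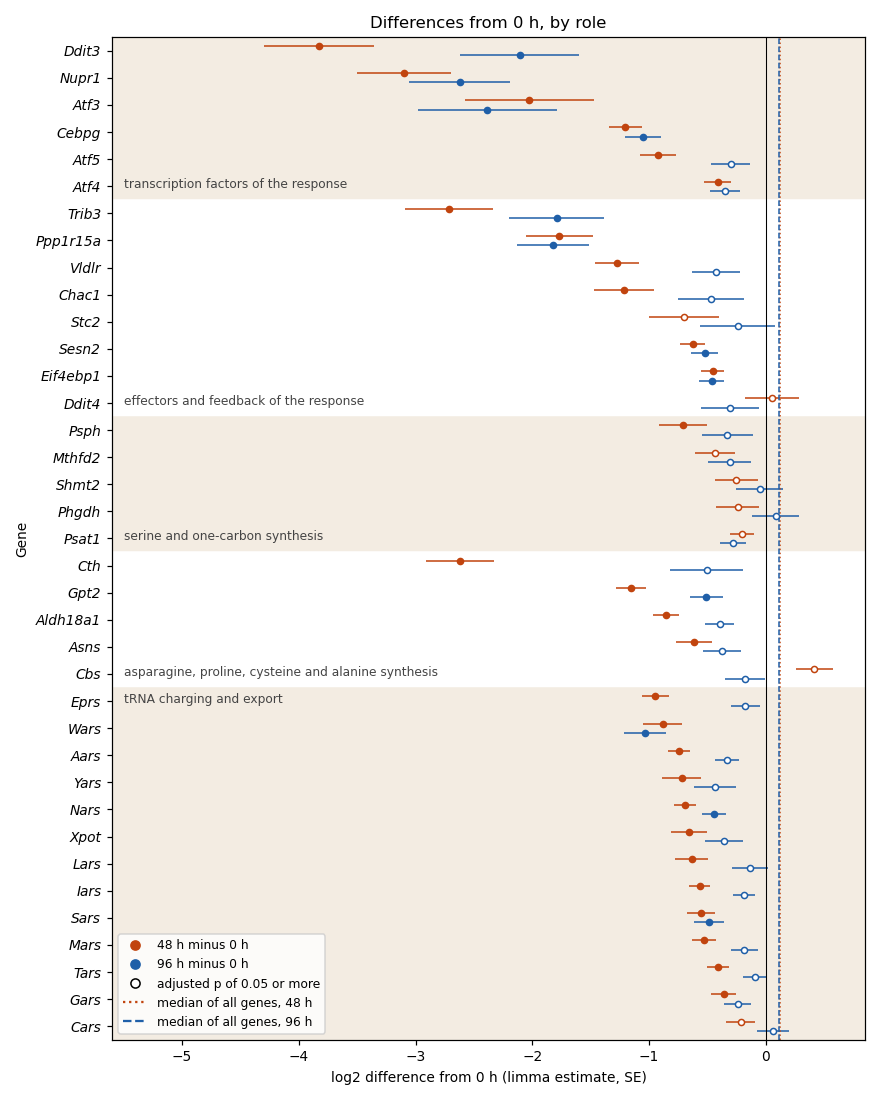
Log2 difference from 0 h (x axis, limma estimate with its SE) of the 37 tested genes, arranged by role, at 48 h (orange) and 96 h (blue); filled points passed the test and the dotted and dashed lines mark the medians of all genes. Of the 48 h points 29 are filled and all of these lie left of 0, and at 96 h 12 are filled.

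All 6 transcription factors of the response fell at 48 h, with a median of -1.62. Ddit3, which encodes the pro-death factor CHOP, had values of 3.35, 2.87, 3.23 and 3.51 at 0 h, -0.24, -0.72, -0.75 and -0.63 at 48 h and 2.44, 1.32 and -0.37 at 96 h. Every 48 h array was below every 0 h array by over 3 units, and at 96 h the 3 arrays spread widely without reaching the 0 h level. Ddit3 was 14.2-fold lower at 48 h (log2 difference -3.82, SE 0.47, adjusted p = 0.00199). Nupr1, a small stress-induced regulator of transcription, had values of 4.87, 4.44, 5.54 and 5.52 at 0 h, 2.23, 2.10, 1.86 and 1.78 at 48 h and 3.42, 2.63 and 1.36 at 96 h. It was 8.57-fold lower at 48 h (-3.10, SE 0.40, adjusted p = 0.00225), with no overlap between 0 h and either later time. Atf3, a stress-induced factor of the ATF family, had values of 0.36, -0.75, -0.34 and 0.13 at 0 h, -1.25, -1.43, -3.23 and -2.81 at 48 h and -1.45, -2.53 and -3.63 at 96 h. The treated arrays of Atf3 were all below the 0 h arrays but spread over more than 2 units among themselves, and the difference at 48 h was -2.03 (SE 0.55, adjusted p = 0.0306).

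Cebpg, a dimer partner of ATF4, had values of 1.84, 1.66, 2.11 and 1.85 at 0 h, 0.86, 0.53, 0.70 and 0.55 at 48 h and 1.09, 0.75 and 0.59 at 96 h. The groups were tight, and both later times lay wholly below 0 h (-1.20 at 48 h, SE 0.14, adjusted p = 0.0019). Atf5, whose mRNA is translated under stress much as that of Atf4 is, fell by 0.92 at 48 h (adjusted p = 0.0057). Atf4 itself had the smallest difference of the 6 at 48 h, with values of 8.82, 8.91, 9.13 and 8.94 at 0 h, 8.60, 8.40, 8.74 and 8.40 at 48 h and 8.67, 8.71 and 8.42 at 96 h. The 48 h and 96 h arrays of Atf4 were all below the 0 h arrays, by a small margin, and the difference at 48 h was -0.41 (SE 0.12, adjusted p = 0.0355). The other Atf4 probe gave -0.57 at both times (adjusted p = 0.00964 at 48 h and 0.0227 at 96 h, over all probes). ATF4 is regulated largely through translation, which RNA levels do not report. The 48 h call of Atf4 ended in 10 of the 24 alternatives (adjusted p up to 0.0966), 5 of them the removal of a single array: replicate 3 or 4 at 0 h, or replicate 1, 2 or 4 at 48 h. The call of Atf3 ended in 6 alternatives (adjusted p up to 0.0841), 5 of them the removal of replicate 1, 3 or 4 at 0 h, or of replicate 3 or 4 at 48 h.

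**Figure D2:**
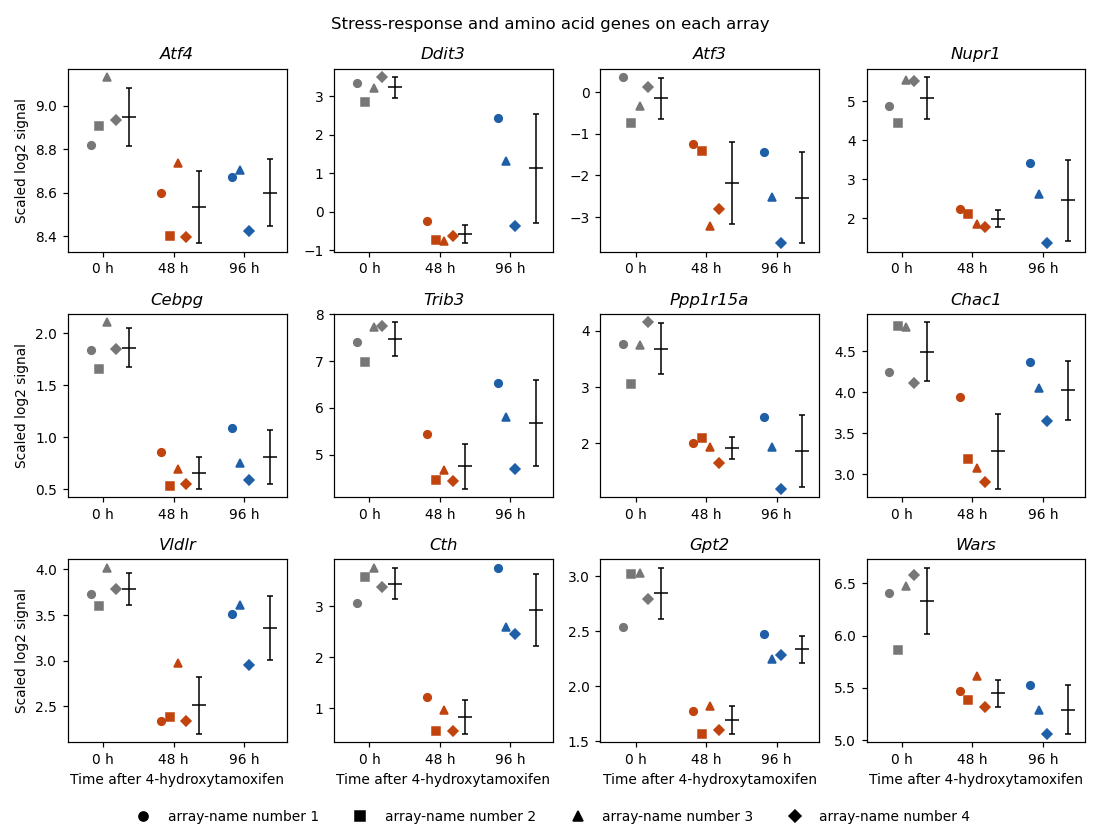
Scaled log2 signal (y axis) of 12 genes on each array at 0 h (grey), 48 h (orange) and 96 h (blue), with the marker shape giving the number in the array name and the bars beside each group its mean and SD (n = 4, 4 and 3). In all 12 panels the 48 h points lie below the 0 h points, and at 96 h Cth and Gpt2 are wholly above 48 h.

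Of the 8 effectors and feedback genes, 6 fell at 48 h, with a median of -0.96 over the 8. Trib3, a pseudokinase that holds ATF4 and CHOP activity back, had values of 7.41, 6.97, 7.73 and 7.75 at 0 h, 5.45, 4.46, 4.67 and 4.43 at 48 h and 6.52, 5.80 and 4.71 at 96 h. The 0 h arrays of Trib3 stood at least 1 unit above every 48 h array, and the gene was 6.57-fold lower (-2.72, SE 0.37, adjusted p = 0.00269). Ppp1r15a encodes GADD34, the subunit that directs removal of the phosphate from eIF2, and had values of 3.76, 3.06, 3.76 and 4.16 at 0 h, 2.00, 2.09, 1.93 and 1.64 at 48 h and 2.46, 1.93 and 1.19 at 96 h. Its 48 h arrays lay close together and far below 0 h (3.41-fold lower, -1.77, SE 0.29, adjusted p = 0.00484).

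Vldlr, the very low density lipoprotein receptor, had values of 3.74, 3.60, 4.02 and 3.78 at 0 h, 2.34, 2.38, 2.98 and 2.35 at 48 h and 3.52, 3.61 and 2.95 at 96 h. The 48 h arrays did not overlap those at 0 h (-1.27, SE 0.19, adjusted p = 0.00352), and the 96 h arrays reached into the 0 h range. Chac1, which degrades glutathione, had values of 4.25, 4.81, 4.80 and 4.12 at 0 h, 3.95, 3.19, 3.08 and 2.91 at 48 h and 4.37, 4.05 and 3.65 at 96 h. Its highest 48 h array lay only just below the lowest 0 h array (-1.21, SE 0.26, adjusted p = 0.0134). Sesn2, a leucine sensor that restrains mTORC1, fell by 0.63 (adjusted p = 0.00627), and Eif4ebp1, which represses cap-dependent translation, fell by 0.45 (adjusted p = 0.0142). Stc2, a secreted glycoprotein, differed by -0.70 without passing the test (adjusted p = 0.126). Ddit4, which restrains mTORC1 and answers to several other stresses, differed by 0.05 (SE 0.23, adjusted p = 0.888).

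Of the 5 genes of serine and one-carbon synthesis, 1 fell at 48 h, and their median of -0.25 was the smallest of the roles, which were not tested against each other. The 1 that fell was Psph, the phosphatase of the last step of serine synthesis (-0.71, SE 0.20, adjusted p = 0.0359), and with same-numbered arrays as a block it did not pass (adjusted p = 0.0604). Its call also ended in 9 other alternatives, the removal of replicate 2, 3 or 4 at 0 h and of replicate 1, 2 or 4 at 48 h among them, and the highest adjusted p was 0.0927. Phgdh, the entry enzyme of the pathway, differed by -0.24 (adjusted p = 0.375), and the aminotransferase gene Psat1 by -0.20 (adjusted p = 0.188). The mitochondrial folate genes Shmt2 and Mthfd2 differed by -0.25 (adjusted p = 0.353) and -0.44 (adjusted p = 0.103), and Mthfd2 passed with the block (adjusted p = 0.0457). At 0 h the arrays of Phgdh, Psph, Shmt2 and Mthfd2 were spread more than at 48 h, with an SD of 0.35 to 0.44 at 0 h. For Psat1 the call depended on the normalization: it passed with quantile normalization, alone (adjusted p = 0.0197) or after normexp correction (-0.33, adjusted p = 0.00377).

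Of 5 tested genes of asparagine, proline, cysteine and alanine synthesis, 4 fell at 48 h, with a median of -0.86. Cth, the lyase that releases cysteine from cystathionine, had values of 3.05, 3.57, 3.76 and 3.38 at 0 h, 1.23, 0.55, 0.96 and 0.55 at 48 h and 3.75, 2.59 and 2.46 at 96 h. It was 6.14-fold lower at 48 h (-2.62, SE 0.29, adjusted p = 0.00178), and its other probe gave -2.54 (adjusted p = 0.0018 over all probes). Gpt2, the mitochondrial enzyme that forms alanine, had values of 2.54, 3.03, 3.03 and 2.79 at 0 h, 1.78, 1.57, 1.82 and 1.61 at 48 h and 2.48, 2.25 and 2.29 at 96 h. The 3 groups of Gpt2 did not overlap and 96 h lay between the others (-1.15 at 48 h, SE 0.13, adjusted p = 0.00178). Aldh18a1, which starts proline synthesis from glutamate, fell by 0.86 (adjusted p = 0.00252), and Asns, asparagine synthetase, by 0.62 (adjusted p = 0.0217). Cbs, which makes the cystathionine that Cth cleaves, had the largest positive difference of the list at 48 h. It was higher on every 48 h array than on every 0 h array, with a difference of 0.41 that did not pass (adjusted p = 0.0963). Of the 24 alternatives it passed in 1, with the block (adjusted p = 0.0378). Over these the difference of Cbs ran from 0.19 to 0.49, with an adjusted p up to 0.702.

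In tRNA charging and export, 12 of 13 genes fell at 48 h, over a narrow range. The median was -0.64, and the falls ran from -0.36 for Gars to -0.95 for Eprs, the joined glutamyl- and prolyl-tRNA synthetase (adjusted p = 0.00199). Each synthetase loads 1 amino acid, or 2 for Eprs, on its tRNAs. Wars, tryptophanyl-tRNA synthetase, had values of 6.40, 5.87, 6.47 and 6.58 at 0 h, 5.47, 5.39, 5.61 and 5.32 at 48 h and 5.53, 5.29 and 5.06 at 96 h. The 48 h and 96 h arrays of Wars lay below all 0 h arrays, of which replicate 2 was the lowest (-0.88 at 48 h, SE 0.17, adjusted p = 0.00818). Next came Aars for alanine (-0.74, adjusted p = 0.00219), Yars for tyrosine (-0.72, adjusted p = 0.0174) and Nars for asparagine (-0.69, adjusted p = 0.00268). Xpot, the exportin that carries tRNA out of the nucleus, fell by 0.66 (adjusted p = 0.0177). Cars for cysteine was the exception, with -0.22 (SE 0.13, adjusted p = 0.253). The call of Gars ended in 13 alternatives (adjusted p up to 0.112), 8 of them the removal of an array, namely any at 0 h, replicate 1, 2 or 4 at 48 h, or replicate 2 at 96 h. That of Xpot ended without replicate 4 at 0 h, and that of Asns without replicate 3 at 0 h or replicate 4 at 48 h.

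Genes fell both among those with the response element and among those without it. Of 11 tested genes with the element, 11 were called lower at 48 h with a median of -0.74, and of 20 tested genes whose window lacked it 13 were, with a median of -0.64. Outside the list, 66 of 360 genes with the element (18.3%) and 1302 of 11591 without it (11.2%) were called lower. At 96 h the list gave 3 of 11 with the element and 6 of 20 without it. Outside the list, 26 of 360 genes with the element (7.22%) and 492 of 11591 without it (4.24%) were called lower at 96 h. The differences between these shares were not tested.

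At 96 h fewer genes passed against 0 h, and those that did were mostly the transcription factors and feedback genes. Of the 37 genes, 12 were lower and 0 higher (limma), against 9.55% called of all genes, 3.38% lower and 6.17% higher, and at an unadjusted p under 0.05 the counts were 18 lower and 0 higher (10.1% and 18.4% of all genes). The median was -0.36, against 0.11 for all genes. By role, 4 of 6 transcription factors, 4 of 8 effectors, 0 of 5 serine and one-carbon genes (1 at an unadjusted p under 0.05), 1 of 5 other synthesis genes and 3 of 13 tRNA charging genes were lower. For Psat1 the probe that stood for the gene gave -0.28 (adjusted p = 0.129). The other Psat1 probe gave -0.53 and passed (adjusted p = 0.0252 over all probes). All 12 were also lower at 48 h: Atf3, Ddit3, Cebpg, Nupr1, Trib3, Sesn2, Ppp1r15a, Eif4ebp1, Gpt2, Nars, Sars and Wars. Nupr1 was 6.16-fold lower (-2.62, SE 0.43, adjusted p = 0.0115) and Atf3 5.22-fold (-2.38, SE 0.59, adjusted p = 0.0356). Ddit3 was 4.31-fold lower (-2.11, SE 0.51, adjusted p = 0.0327), Trib3 3.46-fold (-1.79, adjusted p = 0.0276) and Ppp1r15a 3.54-fold (-1.82, adjusted p = 0.0121). Wars and Cebpg differed by -1.04 and -1.05 (adjusted p = 0.0126 and 0.00744).

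The calls at 96 h rest on 3 arrays and were less stable than those at 48 h. The fit with only the 0 h and 96 h arrays called 1 gene, Cebpg, which alone passed in all 24 alternatives, and counts ran from 1 to 20. The count was 7, 5 and 4 without 0 h replicates 1, 3 and 4, and 4 and 5 without 96 h replicates 2 and 3. With same-numbered arrays as a block, Gpt2 (adjusted p = 0.0745) and Sars (0.0524) did not pass and Xpot did (0.0469).

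Between 48 h and 96 h part of the list rose again. Of the 37 genes, 8 were higher at 96 h than at 48 h and 0 lower (limma), against 11.1% called of all genes, 5.17% higher and 5.95% lower, and at an unadjusted p under 0.05 the counts were 15 higher and 1 lower (14.6% and 13.5% of all genes). The median was 0.30, against 0.03 for all genes. Cth rose most, 4.32-fold (2.11, SE 0.31, adjusted p = 0.00517), to arrays at 96 h that overlapped those at 0 h, and it was the 1 gene whose rise passed in all 24 alternatives. Vldlr (0.85, adjusted p = 0.0287), Eprs (0.77, adjusted p = 0.00693), Gpt2 (0.64, adjusted p = 0.0186) and Atf5 (0.62, adjusted p = 0.0415) also rose. Smaller rises were those of Aldh18a1 (0.46), Aars (0.41) and Iars (0.38). With the block those of Aars (adjusted p = 0.0626) and Atf5 (0.0508) did not pass, and Cbs was called lower (-0.66, adjusted p = 0.0209). Ddit3 had a larger difference than most, 1.72, and did not pass (SE 0.51, adjusted p = 0.056). The count of 8 was 4, 5 and 2 without 48 h replicates 1, 2 and 4, and 2 and 3 without 96 h replicates 1 and 2. Median scaling gave 1, whereas both normexp correction and the authors' deposited table gave 17.

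The log2 difference that remained at 96 h was set against that at 48 h. Among the 29 genes that fell at 48 h, it was a median of 55.1% of the 48 h difference, and ranged from 18.5% for Eprs and 19.4% for Cth to 118% for Atf3 and Wars. By role the median share was 84.3% for the 6 transcription factors, against 45.2% for the 4 called genes of asparagine, proline, cysteine and alanine synthesis and 49.5% for the 12 of tRNA charging. These shares carry the errors of both differences, and the differences between roles were not tested. Ppp1r15a and Eif4ebp1 stood at 103% and 102%, and Nupr1, Sesn2 and Cebpg at 84.6%, 84.0% and 87.5%. The share of Atf4, 84.0%, depended on the normalization. It was 33.2% with quantile normalization, 23.3% after normexp correction and 23.5% from the deposited table, and between 48 h and 96 h Atf4 was then called higher with normexp correction (0.50, adjusted p = 0.0109) and from the deposited table (0.50, adjusted p = 0.0111). Over the 24 alternatives the median share ranged from 64.6% to 95.9% for the transcription factors and from 56.4% to 90.6% for the effectors. It ranged from 37.2% to 68.7% for the asparagine, proline, cysteine and alanine genes and from 37.8% to 80.0% for tRNA charging.

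**Figure D3:**
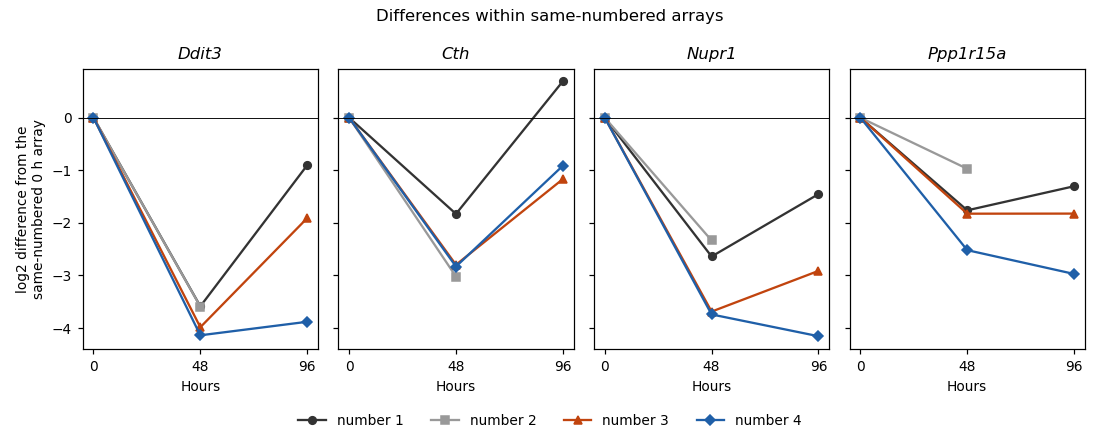
Log2 difference from the 0 h array with the same array-name number (y axis) against hours of 4-hydroxytamoxifen (x axis) for Ddit3, Cth, Nupr1 and Ppp1r15a; each line is 1 number, and number 2 has no 96 h array. Cth rises in all 3 lines between 48 h and 96 h, whereas Ddit3 rises by 2.68 and 2.07 in numbers 1 and 3 and by 0.26 in number 4.

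The 96 h arrays differed among themselves in the same order for most of the list. Replicate 1 at 96 h was the highest of its group for 29 of the 37 genes and replicate 3 the lowest for 28. These counts were not made over all genes, so the order may not be particular to the list. Within same-numbered pairs, the list's median difference from 0 h at 96 h was -0.13 for number 1, -0.51 for number 3 and -0.51 for number 4. At 48 h it lay between -0.79 and -0.58 in the 4 pairs. The medians of all genes were 0.11, 0.06 and 0.11 in these pairs at 96 h, and between 0.04 and 0.16 at 48 h. For Ddit3 the 96 h differences in the pairs numbered 1, 3 and 4 were -0.90, -1.91 and -3.88, and for Cth they were 0.69, -1.17 and -0.91. Number 4 thus kept nearly all of its loss of Ddit3 at 96 h, and number 1 had more Cth than before treatment. Replicate 1 at 96 h also had the largest share of spots well above background, 75.8%, against 54.1% and 64.7% on replicates 2 and 3, and the part of this in the result was not tested. In all, 23 of the 37 genes were lower than 0 h in all 3 pairs at 96 h, against 21.0% of all genes with values. Between 48 h and 96 h, 26 were higher in all 3 pairs, against 28.9% of all genes.

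Neighbouring genes of the pathway were read from further lists, in which no gene was a member. These lists too were chosen with earlier results of these data known. Of all genes, 8.02% were called lower and 10.5% higher at 48 h, and 3.38% and 6.17% at 96 h. Between the later times these shares were 5.95% lower and 5.17% higher. They apply to this and the following lists, which are small. Of 9 amino acid transporters known as ATF4 targets, 8 fell at 48 h and 0 rose, with a median of -0.85, and at an unadjusted p under 0.05 9 were lower and 0 higher. The cationic transporter Slc7a3 fell most (-3.00, SE 0.39, adjusted p = 0.00236). At 96 h 7 of the 9 were still lower, Slc7a3 by 1.53 (adjusted p = 0.0485). Of 21 other targets of ATF4 or CHOP, 12 fell and 1 rose at 48 h, with a median of -0.67. The hormone gene Fgf21 fell most (-2.92, adjusted p = 0.0117), and Hmox1, a haem-degrading enzyme that other stress pathways also induce, rose (1.56, adjusted p = 0.00629) and fell again by 96 h (-1.31 against 48 h, adjusted p = 0.0204). At 96 h 6 of the 21 were lower, with Txnip at -1.16 (adjusted p = 0.0294), and Gtpbp2 rose between 48 h and 96 h (0.97, adjusted p = 0.025).

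Upstream of ATF4 stand the eIF2 kinases and eIF2 itself. Of 18 genes for eIF2 kinases, eIF2, eIF2B and their regulators, among them the mitochondrial stress relay of Oma1 and Dele1, 6 fell at 48 h and 0 rose (7 and 1 at an unadjusted p under 0.05), with a median of -0.18. The 6 were Eif2ak4, Eif2s1, Eif2s2, Eif2b3, Oma1 and Dele1, of which Dele1 fell most (-0.57, adjusted p = 0.0222). Eif2ak4, the kinase GCN2 that senses uncharged tRNA, was higher at 96 h than at 48 h (0.72, adjusted p = 0.01), and the eIF2 subunit gene Eif2s2 was lower than 0 h at 96 h (-0.56, adjusted p = 0.0369).

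Fewer of the synthetases outside the list were called, a difference that was not tested. Of 11 other cytosolic synthetases and their scaffold proteins, 3 fell and 1 rose at 48 h with a median of -0.04, against 12 of 13 and -0.64 in the list. Rars, for arginine, fell (-0.70, adjusted p = 0.00266) and the scaffold gene Aimp2 rose (0.41, adjusted p = 0.0179). At 96 h the same 3 genes, Farsb, Rars and Eef1e1, were lower, with Rars at -0.70 (adjusted p = 0.00805). Of 16 mitochondrial synthetases, 2 fell at 48 h and 0 rose. The 12.5% that fell stood against 8.02% of all genes and 11.2% of the named genes whose window lacked the element. At an unadjusted p under 0.05 the counts were 5 and 0, against 13.9% and 20.8% of all genes. Rars2 was at -0.87 (adjusted p = 0.00539). Vars2 was higher at 96 h than at 48 h (0.80, adjusted p = 0.0162).

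Other amino acid and folding genes went in both directions at 48 h, when 8.02% of all genes were called lower and 10.5% higher. Each share in these lists rests on few called genes. Of 17 other folate and glycine genes, 3 fell and 1 rose. Aldh1l2, a mitochondrial folate dehydrogenase, was lower at 48 h (-2.24, adjusted p = 0.00203) and at 96 h (-1.32, adjusted p = 0.0282), and Gcsh of the glycine cleavage system was higher at 48 h (0.31, adjusted p = 0.0401). Srr, serine racemase, was higher at 96 h than at 0 h (0.41, adjusted p = 0.0446) and than at 48 h (0.60, adjusted p = 0.0104). Of 13 methionine, cysteine and glutathione genes, 3 rose at 48 h and 0 fell (4 and 0 at an unadjusted p under 0.05). Among these 13, Cdo1, which breaks cysteine down, was at 0.95 (adjusted p = 0.0273), and Gclc, of glutathione synthesis, was higher at 96 h (0.58, adjusted p = 0.0103).

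Of 18 other glutamate, proline, aspartate and alanine genes, 4 fell and 2 rose at 48 h, among them the branched-chain aminotransferase gene Bcat1 (-1.74, adjusted p = 0.0142) and Ass1, of arginine synthesis (0.70, adjusted p = 0.022). Of 20 endoplasmic reticulum chaperone and folding genes, which the other branches of the unfolded protein response control, 3 fell and 3 rose at 48 h with a median of 0.17. The chaperone gene Calr was higher at 48 h (1.02, adjusted p = 0.00557) and at 96 h (0.69, adjusted p = 0.0438), and Sel1l, of protein disposal, was lower at 48 h (-1.06, adjusted p = 0.00777). Between 48 h and 96 h the stress sensor gene Atf6 rose (0.84, adjusted p = 0.0147) and Creld2 fell (-0.44, adjusted p = 0.0238).

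**Figure D4:**
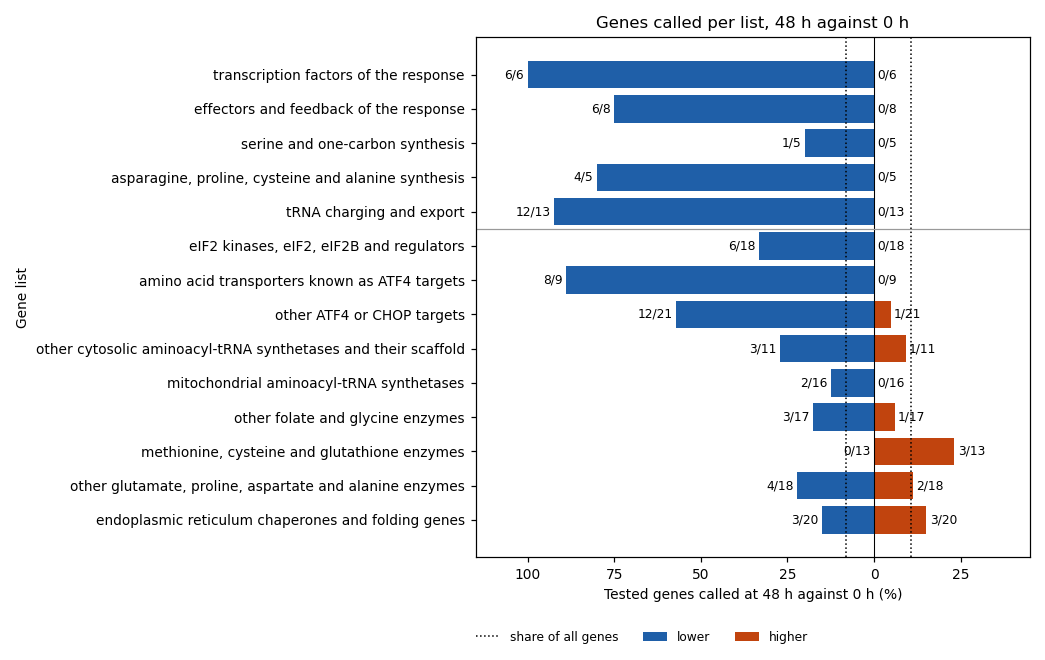
Share of the tested genes of each list called lower (blue, to the left) or higher (orange, to the right) at 48 h against 0 h (x axis, percent), with the counts beside the bars and dotted lines at the shares of all genes, 8.02% lower and 10.5% higher. The 5 groups above the grey line make up the 37 genes, and the transporters below it have 8 of 9 genes lower.

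How all called genes divided between higher and lower moved with the scaling. The median of all genes at 48 h was 0.12 in the main scaling and -0.10 with each array scaled to its median. Both shift all genes of an array alike, so the list's median relative to all genes, -0.81, could not differ between them. Quantile normalization can move it, and gave the list -0.71 against 0.01 for all genes at 48 h, and -0.36 against -0.01 at 96 h. After normexp correction these medians were -0.69 against 0.002 at 48 h and -0.31 against 0.01 at 96 h. In the main scaling, called genes were 2644 higher and 2012 lower at 48 h, against 424 and 1931 with median scaling. They were 1849 and 2202 with quantile normalization, and 2198 and 2696 with normexp correction (2195 and 2687 from the deposited table). Taking the percentile only over probes detected on all arrays gave 3570 and 1754. At 96 h they were 1548 higher and 848 lower, against 231 and 2328 with median scaling, 980 and 1164 with quantile normalization, and 1369 and 1293 with normexp correction (1365 and 1284 from the deposited table). Between 48 h and 96 h they were 1296 and 1493, against 158 and 762 with median scaling.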

How the data were processed

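RNA from 11 samples was measured on 1-colour Agilent arrays. Per the file headers, Agilent Feature Extraction 11.0.1.1 wrote the scanner files and the design was built on mm9. Per the file headers, the deposited processed signal is an intensity from which background and a spatial trend had been removed array by array, without normalization across arrays. The deposited medians of spot and local background pixels are raw intensity values. The deposited flags hold 0 or 1 per spot. The authors' deposited table is on a log2 scale. The submitters' processing notes name limma, whose version is not given in the sources used here. The table's columns, with medians of 6.17 to 6.19, correlated with normexp correction (offset 50) and quantile normalization of the scanner values at 0.99998, with no centring of genes.

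Controls and outlier-flagged spots (125 to 194 on an array) were dropped, and 0 non-control spots were saturated. Scaled log2 signals were averaged over spots of a probe (55681 probes). The 34273 probes detected well above background by 3 or more of the 11 arrays were kept, and the brightest stood for its gene. Accessions were matched to RefSeq GRCm38.p6, which named 27656 probes. Groups were compared with limma 3.58.1 (lmFit and eBayes, 2-sided, 8 residual degrees of freedom, all arrays) in R 4.3.3, with Benjamini-Hochberg adjustment over 25082 genes, and the procedure was tested on simulated data. The median spot signal replaced the mean signal in normexp, as the files give no mean. The number of arrays limits the precision. Samples with the same number in the array name deviated together (correlation 0.115 to 0.356 in every pair). For number 4 at 0 h, however, a 48 h array of another number correlated more than its own (0.137). Title numbers, the same at 0 h and 48 h (0.137 to 0.282), did so with 96 h only for number 1 (0.356 and 0.303). For the other title numbers these correlations with 96 h were below 0, down to -0.04. The array-name number therefore served as the block.

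The genes and lists were chosen with earlier results of these data known. Values per array are given for genes called with a log2 difference of at least 1 in any comparison and for Atf4, Ddit3 and Cth, and of each further list the called gene with the largest difference per direction and comparison is named, apart from 1 result that is not reported here. Alternatives were other scalings, background corrections, filters, probe rules, array weights, blocks, the slide row, only the 2 groups compared, and each array left out.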

Additional observations from a re-analysis of the deposited data

Results flagged for a closer look

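For 6 of 74 sets of 4 arrays (the 37 genes at 0 h and at 48 h), 1 array lay far from the other 3 by Dixon's criterion for the gap as a share of the range, and chance gives about 1 such set in 20. At 0 h, replicate 3 was high for Stc2 (3.75 against 3.29 to 3.33, gap 0.92 of the range), Lars (5.83 against 5.46 to 5.52, gap 0.835) and Nars (4.85 against 4.63 to 4.65, gap 0.942), and replicate 2 was low for Xpot (3.91 against 4.47 to 4.55, gap 0.875). Replicate 3 was the highest 0 h array for 19 of the 37 genes, a count that was not made over all genes. At 48 h, replicate 3 was high for Vldlr (2.98 against 2.34 to 2.38, gap 0.938) and replicate 4 was low for Mthfd2 (3.42 against 3.70 to 3.75, gap 0.847).

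For 8 genes the difference from 0 h at 96 h itself differed from that at 48 h by limma's test of the contrast between the later times. These were Cth (2.11), Vldlr (0.85), Eprs (0.77), Gpt2 (0.64), Atf5 (0.62), Aldh18a1 (0.46), Aars (0.41) and Iars (0.38), each higher at 96 h.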

How the results depend on the processing

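No result changed direction with a call in any alternative. Of 29 calls at 48 h, 12 at 96 h and 8 between the later times, 23, 1 and 1 held in all 24 alternatives. Median scaling gave 2355 called genes at 48 h, 20 lower members at 96 h, and 1 higher member and 920 genes between 48 h and 96 h. With no filter on dim probes there were 2652, 910 and 1367 called genes in the 3 comparisons, 4 lower members at 96 h and 3 higher members between the later times, and the list's median relative to all genes at 48 h was -0.92. Normexp correction gave relative medians of -0.69 at 48 h and -0.31 at 96 h and 17 higher members between the later times, and the deposited table -0.69, -0.32 and 17. With only the 2 groups compared, 1 member and 435 genes were called at 96 h and 4 higher members between the later times. The replicate block by title number gave 1484 called genes at 96 h, and 1600 genes and 2 higher members between the later times. The replicate block by array-name number called 1 member higher at 48 h, Cbs, changed the calls of Psph, Mthfd2, Gpt2, Sars, Xpot, Atf5 and Aars and the call of Cbs between the later times, and changed no other call of the 37 genes. Cbs was 1 lower member between the later times with that block, the percentile over probes above background on all arrays, normexp correction, the deposited table, the stricter filter and array weights.

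Leaving out 1 array gave 24 to 29 lower members at 48 h, 4 to 12 at 96 h, and 2 to 8 higher members between the later times. Called genes ran from 2447 to 5431, 703 to 3293 and 988 to 2970, and relative medians from -0.87 to -0.71, -0.55 to -0.38 and 0.20 to 0.33. The causes of these movements were not tested. All members were well above background on all arrays. This shows that they were detected, and does not show that the sizes of their differences are free of background handling. The difference of Atf3 ran from -2.34 to -1.14 at 48 h and from -2.93 to -1.22 at 96 h over the 24 alternatives.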
